A study of Mus musculus with 8 samples.

Results

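The small leucine-rich proteoglycans described here are 10 genes, Dcn, Bgn, Lum, Fmod, Prelp, Chad, Epyc, Ogn, Aspn and Kera, chosen by name as members of one protein family. They, like the gene lists and markers below, were chosen with earlier results of these data known. Counts of them set beside the share of all features are therefore a description. The 10 genes were followed through 23105 features measured in growth plate cartilage. Each was found on the array through the RefSeq transcript that its probe is named for, and all 10 were well above background on all 8 arrays, so none was lost to the filter on dim signals. Total RNA came from femoral growth plates of 12-day-old littermate mice, 4 labelled CreTW and 4 labelled Cre, with 100 ng per array on 1-colour Agilent arrays. The labels do not spell out the alleles. As background on the study, both groups carry a Cre recombinase driven by the Col2a1 promoter, which is active in cartilage, and the CreTW mice in addition express there a mutant form of the mitochondrial DNA helicase Twinkle. The Cre mice are therefore recombinase-carrying controls and not untreated wild types, and the labels give neither sex nor which of the littermates shared a litter.

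These proteins share a curved core of leucine-rich repeats that binds collagen, and most of them carry chondroitin, dermatan or keratan sulfate chains. They sit on the surface of collagen fibrils, where they set fibril width and spacing, and several hold growth factors such as TGF-beta in the matrix. Epyc, Chad and Prelp are known mainly from cartilage, whereas Dcn, Lum, Ogn, Aspn and Kera are abundant in tendon, cornea, bone surfaces or other connective tissue that borders cartilage, and Bgn and Fmod occur in both. Below, Bgn and Fmod are counted with the connective tissue members. The question put to these arrays was whether the cartilage-specific members and the connective tissue members differed in the same way between CreTW and Cre growth plates.

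Members of the family lie side by side in the mouse genome, by the gene order of the RefSeq annotation of GRCm38.p6. On chromosome 10 the protein-coding genes Dcn, Lum, Kera and Epyc follow one another, on chromosome 13 Ecm2, Aspn, Omd and Ogn do, and on chromosome 1 Optc, Prelp and Fmod do. RefSeq promoter windows of 300 bases, 250 before and 50 after an annotated start, were at hand for 8 of the 10 listed genes. Those of Kera and Epyc are shown because these neighbours had the largest differences in opposite directions, and that of Prelp because its levels followed those of Epyc most closely of all pairs. Capitals mark the letters AACAATG, a sequence bound by SOX proteins, read on either strand. The windows are on GRCm38.p6, Epyc start 1 at chr10:97643818-97644117 (+), Epyc start 2 at chr10:97646853-97647152 (+), Kera at chr10:97606955-97607254 (+) and Prelp at chr1:133921352-133921651 (-), each written 5′ to 3′ along its gene.
Epyc start 1: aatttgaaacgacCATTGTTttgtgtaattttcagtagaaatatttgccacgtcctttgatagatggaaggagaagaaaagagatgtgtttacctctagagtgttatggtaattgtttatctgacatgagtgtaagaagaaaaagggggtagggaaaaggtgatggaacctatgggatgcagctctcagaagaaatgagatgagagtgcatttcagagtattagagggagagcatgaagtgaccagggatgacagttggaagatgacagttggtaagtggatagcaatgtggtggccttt
Epyc start 2: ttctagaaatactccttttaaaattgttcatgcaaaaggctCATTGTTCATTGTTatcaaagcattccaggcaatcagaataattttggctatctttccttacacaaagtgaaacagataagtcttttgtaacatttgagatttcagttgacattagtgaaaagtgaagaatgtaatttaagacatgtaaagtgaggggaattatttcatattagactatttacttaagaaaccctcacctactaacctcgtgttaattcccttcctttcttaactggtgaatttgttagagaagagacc
Kera: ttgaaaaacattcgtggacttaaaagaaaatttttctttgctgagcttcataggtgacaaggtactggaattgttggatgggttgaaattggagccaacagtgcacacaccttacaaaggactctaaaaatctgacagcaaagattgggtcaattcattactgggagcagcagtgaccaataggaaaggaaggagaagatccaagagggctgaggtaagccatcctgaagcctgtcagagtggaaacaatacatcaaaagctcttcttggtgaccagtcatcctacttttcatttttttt
Prelp: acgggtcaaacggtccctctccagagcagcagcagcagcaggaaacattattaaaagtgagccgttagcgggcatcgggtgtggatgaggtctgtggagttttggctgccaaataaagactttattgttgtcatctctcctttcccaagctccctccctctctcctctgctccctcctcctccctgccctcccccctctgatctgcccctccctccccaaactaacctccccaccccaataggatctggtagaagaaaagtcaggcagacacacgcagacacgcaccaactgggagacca
The match in the window of Epyc start 1 began 237 bases before the start. In the window of start 2 there were 2 matches, 209 and 202 bases before it, directly one after the other. Among the 8 listed genes with a window, Epyc alone held these letters, and 3.78% of all 32851 windows of the same length did. Nyx, a gene of the family outside the list, held them as well, 216 bases before its start. The letters TATAAA were present in 3 of the 8 genes (Aspn, Chad and Ogn, against 13.6% of all windows), ACAAAG in 2 (Epyc and Kera, against 18.7%), CAGACA in 1 (Prelp, against 21%) and CATCTG in 1 (Fmod, against 17.2%), each searched on both strands. A listed gene was counted if any of its windows held the letters, whereas the shares count single windows, and Epyc has 2. These matches describe the letters in the windows only.

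Values below are log2 of the processed signal minus log2 of the array's 75th percentile, so that 0 is the 75th percentile and 1 unit is a doubling; replicates are given in the order 1 to 4. A level of one gene cannot be set against that of another, since each comes from its own probe. Differences are CreTW minus Cre with their standard error, n = 4 arrays per genotype, from limma fitted over all 23105 features with Benjamini-Hochberg adjustment. None of the 10 listed genes passed the threshold of adjusted p 0.05, which 0.346% of all features did. Without adjustment 5 of the 10 had p under 0.05, all with the higher mean in CreTW (Kera, Aspn, Dcn, Lum and Ogn), against 5.93% of all features in that direction. That count was 1 without Cre replicate 2, and 2 without each of CreTW replicate 1, CreTW replicate 3 and Cre replicate 3. In whole cartilage, a smaller number of cells of one kind and less RNA per cell cannot be told apart.

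**Figure D1:**
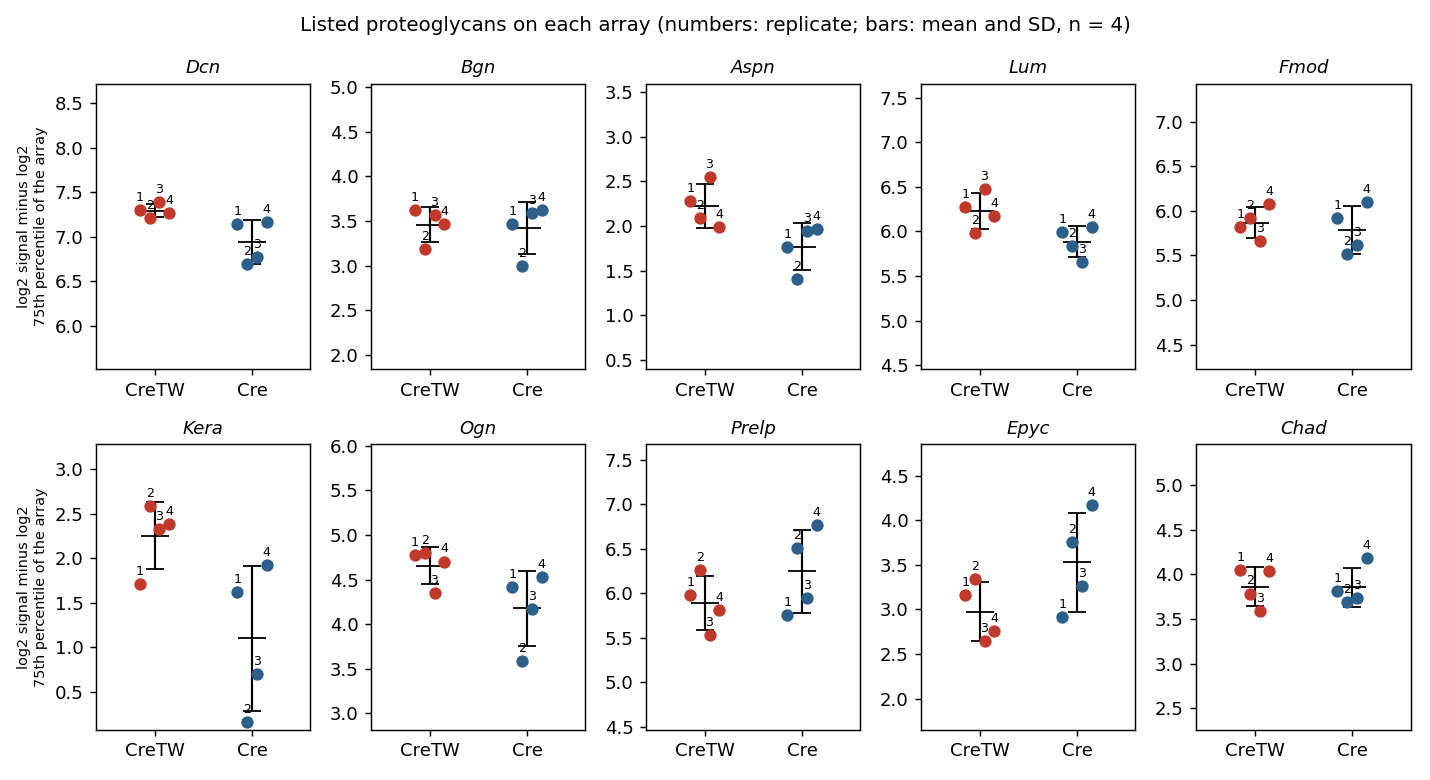
Log2 signal relative to the array's 75th percentile (vertical axes, all spanning the same range) for the 10 listed genes, CreTW left and Cre right; points are arrays numbered by replicate, bars the mean and SD of 4. The 4 CreTW points lie above the 4 Cre points for Dcn and Aspn only, and Cre replicates 2 and 3 are low for Kera.

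The first structural class holds Dcn, Bgn and Aspn. Dcn encodes decorin, which binds collagen fibrils and TGF-beta. Dcn lay at 7.30, 7.21, 7.39 and 7.27 on the CreTW arrays, against 7.14, 6.70, 6.77 and 7.17 on the Cre arrays. The 2 groups did not overlap, and Cre replicates 2 and 3 were well below the other Cre arrays. The difference was 0.35 ± 0.13 (1.27-fold, 95% confidence interval of the log2 value 0.06 to 0.64, adjusted p = 0.381 by limma). Aspn encodes asporin, which binds collagen and calcium and carries no sulfated chain. Aspn lay at 2.28, 2.09, 2.55 and 1.98 in CreTW, against 1.76, 1.40, 1.95 and 1.96 in Cre. Its groups did not overlap either, by a narrow margin between CreTW replicate 4 and Cre replicate 4. The difference was 0.46 ± 0.17 (1.37-fold, interval 0.08 to 0.83, adjusted p = 0.381). So 2 of 10 members had groups apart with CreTW above, as had 3.89% of all features. Bgn encodes biglycan, decorin's closest relative, encoded on the X chromosome. Bgn lay at 3.63, 3.18, 3.57 and 3.46 in CreTW, against 3.47, 3.0, 3.59 and 3.63 in Cre. Its groups overlapped almost entirely, and the difference of 0.04 ± 0.16 had an interval of -0.33 to 0.41.

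The second class, whose members typically carry keratan sulfate, holds Lum, Fmod, Kera and Prelp. Kera encodes keratocan, best known from the cornea, where it keeps collagen fibrils evenly spaced. Kera lay at 1.72, 2.58, 2.33 and 2.39 in CreTW, against 1.62, 0.16, 0.70 and 1.92 in Cre. CreTW replicate 1 fell between the Cre arrays, below Cre replicate 4, while the other CreTW arrays stood above all Cre arrays. The difference, 1.15 ± 0.38 (2.23-fold, interval 0.28 to 2.03, adjusted p = 0.339), was the largest of the 10 listed genes in size. It was 0.84 without Cre replicate 2 and 1.43 without Cre replicate 4. Lum encodes lumican, a regulator of fibril diameter in cornea, skin and tendon. Lum lay at 6.28, 5.99, 6.48 and 6.18 in CreTW, against 6.0, 5.84, 5.66 and 6.05 in Cre. Only CreTW replicate 2 reached into the range of the Cre arrays, and the difference was 0.34 ± 0.13 (1.27-fold, interval 0.04 to 0.64, adjusted p = 0.411).

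Fmod encodes fibromodulin, which guides the early assembly and cross-linking of fibrils in tendon and cartilage. Fmod lay at 5.82, 5.92, 5.66 and 6.07 in CreTW, against 5.92, 5.51, 5.62 and 6.10 in Cre. The groups overlapped throughout, with a difference of 0.08 ± 0.15 (interval -0.27 to 0.42). Prelp encodes a protein whose basic end binds heparan sulfate and which is thought to anchor basement membranes and collagen to each other. Prelp lay at 5.98, 6.26, 5.53 and 5.81 in CreTW, against 5.76, 6.51, 5.95 and 6.76 in Cre. Cre replicates 2 and 4 were above every CreTW array and Cre replicate 1 was below CreTW replicates 1, 2 and 4, so the groups overlapped. The difference was -0.35 ± 0.24 (interval -0.90 to 0.21, adjusted p = 0.636). A second, dimmer probe of Prelp gave a difference of -0.28.

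Ogn and Epyc belong to the third class. Ogn encodes osteoglycin, also called mimecan, found in bone, cornea and vessel walls. Ogn lay at 4.77, 4.80, 4.35 and 4.70 in CreTW, against 4.41, 3.59, 4.17 and 4.53 in Cre. CreTW replicate 3 lay below Cre replicates 1 and 4, and Cre replicate 2 was the lowest array by a clear distance. The difference was 0.48 ± 0.21 (1.39-fold, interval 0.01 to 0.95, adjusted p = 0.457). Epyc encodes epiphycan, a dermatan sulfate proteoglycan of the epiphyseal cartilage. Epyc lay at 3.16, 3.34, 2.64 and 2.76 in CreTW, against 2.91, 3.76, 3.26 and 4.17 in Cre. CreTW replicates 3 and 4 were the lowest of all and Cre replicates 2 and 4 the highest, with the other 4 arrays overlapping. The difference was -0.55 ± 0.28 (0.683-fold, interval -1.19 to 0.09, adjusted p = 0.527), and it was -0.34 without Cre replicate 4. Chad, of the fourth class, encodes chondroadherin, a cartilage protein that binds integrins and collagen. Chad lay at 4.04, 3.79, 3.59 and 4.04 in CreTW, against 3.81, 3.69, 3.74 and 4.18 in Cre. The groups coincided, with a difference of 0.01 ± 0.15 (interval -0.33 to 0.35).

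**Figure D2:**
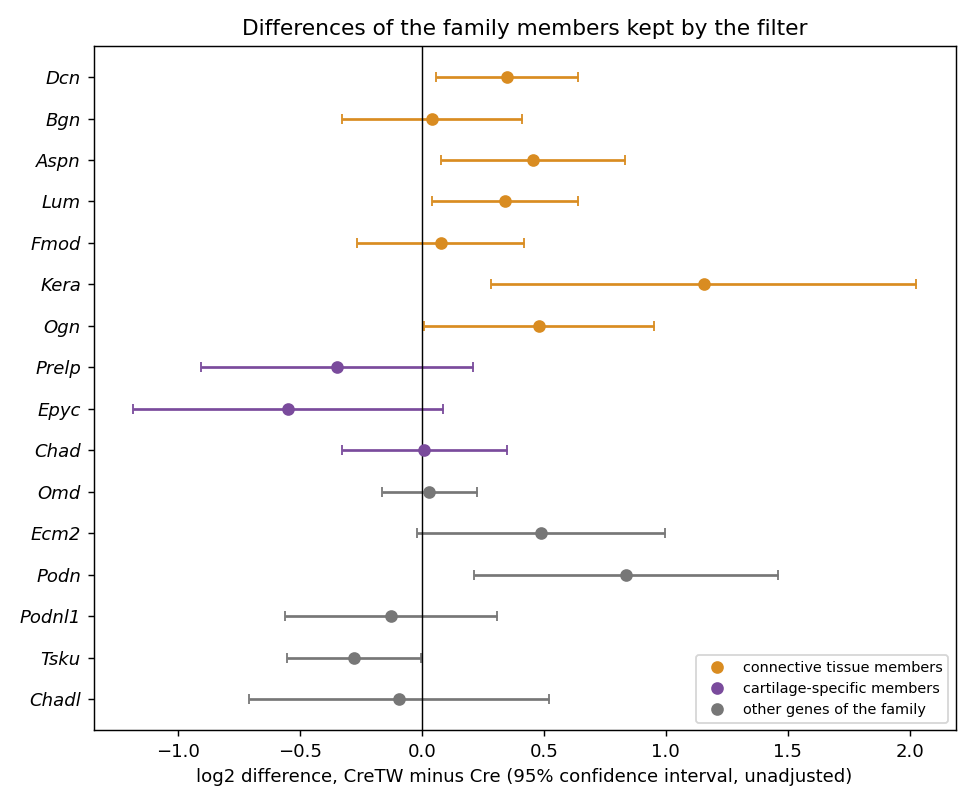
Log2 difference CreTW minus Cre (horizontal axis) for the 10 listed genes and the 6 other family genes kept by the filter, with unadjusted 95% confidence intervals from limma, n = 4 arrays per genotype. Kera lies farthest right at 1.15 and Epyc farthest left at -0.55, and no difference passed after adjustment.

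None of these differences passed the test, and the contrast between the cartilage-specific and the connective tissue members was described without a test. All 7 connective tissue members had a positive difference, from 0.04 for Bgn to 1.15 for Kera with a median of 0.35, whereas Epyc and Prelp were negative and Chad was near 0, with a median of -0.35. Without Cre replicate 2 the differences of Bgn and Fmod were -0.10 and -0.015, and that of Bgn was also negative without CreTW replicate 1 (-0.016) and within slide row 2 (-0.092). The median over the 10 listed genes was 0.21 and over all features -0.0075, and 48.4% of all features had a positive difference. Averaged over genes after centring each on its mean, the connective tissue members scored 0.18, 0.18, 0.26 and 0.22 on the CreTW arrays, against -0.03, -0.62, -0.30 and 0.12 on the Cre arrays. The cartilage-specific members scored 0.0016, 0.07, -0.47 and -0.19 in CreTW, against -0.23, 0.26, -0.08 and 0.65 in Cre. The first set thus stood apart between the genotypes and the second overlapped. The gap of the first set rested on Kera, without which the score was 0.20, 0.05, 0.19 and 0.14 in CreTW, against -0.03, -0.47, -0.18 and 0.10 in Cre, so that CreTW replicate 2 lay below Cre replicate 4. The cartilage-specific score minus the connective tissue score averaged -0.36 ± 0.28 in CreTW and 0.36 ± 0.46 in Cre (SD, n = 4 each), a difference of -0.71 ± 0.27 (SE). Cre replicate 1, at -0.20, was the only Cre array in the range of the CreTW arrays, which ran from -0.73 to -0.11. No p-value is attached to these scores, since the members were a chosen set.

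**Figure D3:**
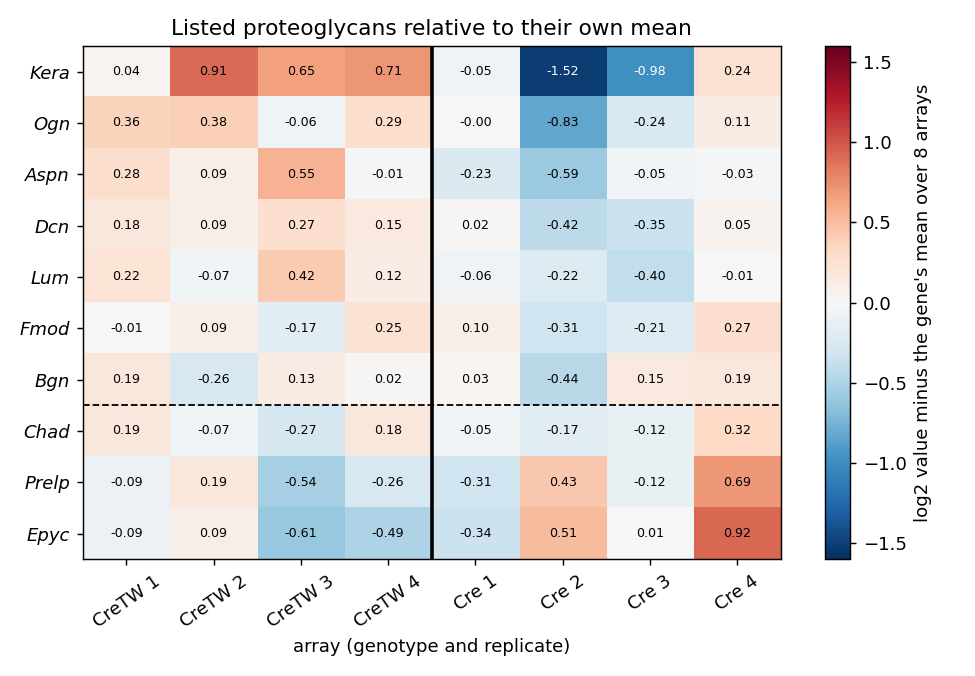
Log2 value of each listed gene minus its mean over the 8 arrays (colour and printed number), CreTW arrays left of the solid line and Cre arrays right of it, connective tissue members above the dashed line and cartilage-specific members below it. Prelp and Epyc share a pattern that is highest on Cre replicate 4 and lowest on CreTW replicate 3, while Kera, Ogn, Aspn, Dcn, Fmod and Bgn are lowest on Cre replicate 2.

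Neighbouring genes did not all behave alike, as seen in Epyc and Kera, picked because they had the largest differences in opposite directions. Epyc and Kera are adjacent on chromosome 10, yet Kera minus Epyc lay at -1.44, -0.76, -0.31 and -0.37 in CreTW, against -1.29, -3.60, -2.56 and -2.25 in Cre. Cre replicate 1 alone among the Cre arrays entered the CreTW range. Over the 8 arrays Epyc and Kera had a Pearson r of -0.39 (Spearman rho -0.29, exact permutation p = 0.337 and 0.501, two-sided). Their r was -0.09 within CreTW and 0.07 within Cre. The difference between genotypes for which they were picked enters the value over 8 arrays. Dcn and Lum, neighbours at the other end of that cluster, were positively correlated (r = 0.88, rho = 0.90, exact permutation p = 0.00206 and 0.00456, adjusted p = 0.0463 and 0.0684 over the 45 pairs of listed genes). Their r was 0.95 without the 2 arrays farthest from the median of Dcn, 0.99 within the CreTW arrays and 0.85 within the Cre arrays. Dcn and Kera, of the same cluster, had r = 0.92 and rho = 0.71 (exact permutation, adjusted p = 0.0723 and 0.324), with -0.28 within CreTW and 0.98 within Cre. The closest pair of listed genes lay on different chromosomes. Epyc and Prelp had r = 0.98 and rho = 0.95 (exact permutation p = 9.92e-05 and 0.00114, adjusted p = 0.00446 and 0.0257), with 0.91 without the 2 arrays farthest from the median of Prelp, 0.96 within CreTW, 0.99 within Cre, and 0.98 within each slide row. Dcn and Aspn agreed more in rank than in value (r = 0.79, rho = 0.95, exact permutation, adjusted p = 0.129 and 0.0257). The genotypes did not overlap for either gene, so the difference between genotypes enters these values. Within CreTW their r was 0.88, within Cre 0.53, within slide row 1 0.94 and within row 2 0.63.

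Outside the list, the features whose levels over the 8 arrays were most like those of a member by Pearson r, out of 14126 with a symbol, were picked as the highest and are given as a description. For Dcn the nearest was Col12a1 (r = 0.993), the fibril-associated collagen of tendon and fascia, whose difference was 0.30. For Kera, Tnmd, which encodes the tendon protein tenomodulin, was the second (0.98, difference 0.62) and Igfbp6 the third (0.98, difference 0.69), after Entpd2 (0.984). For Ogn the third was Ecm2 (0.975), of the same cluster on chromosome 13, after Shisal1 (0.978) and Igf2bp2 (0.978). Prelp and Epyc shared Pygl, the liver form of glycogen phosphorylase (0.991 and 0.984), whose difference was -0.49. Pygl was the nearest for Prelp, while for Epyc Golga2 was nearer (0.991, difference -0.15). The nearest features of the other members were Cwc22 for Bgn (0.976), Ndufb5 for Lum (0.974), Crispld1 for Fmod (0.975), Igdcc3 for Chad (0.988) and Tom1l1 for Aspn (0.977).

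Replicates of the Cre genotype spread more than those of CreTW for 9 of the 10 listed genes, Lum being the exception, while 52.5% of all features had the larger SD in Cre. For Kera the SD was 0.38 in CreTW and 0.82 in Cre, and for Dcn 0.08 in CreTW and 0.25 in Cre (n = 4 each). The SDs were nearly equal for Chad, 0.220 in CreTW and 0.223 in Cre, and for Aspn, 0.249 in CreTW and 0.261 in Cre. The spread in Cre lay mainly between replicates 1 and 4 on one side and 2 and 3 on the other for Dcn, Kera and Fmod, and between replicates 2 and 4 and the rest for Epyc and Prelp. These genotypes' spreads were not compared by a test.

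Per the file headers, the slide held the arrays in 2 rows, and 2 mice of each genotype fell in each row. Within row 1 the difference was 1.26 for Kera, 0.78 for Ogn, 0.60 for Aspn, 0.34 for Dcn and 0.21 for Lum. Within row 2 it was 1.05 for Kera, 0.17 for Ogn, 0.31 for Aspn, 0.36 for Dcn and 0.47 for Lum. These 5 genes, the ones with p under 0.05 by limma without adjustment, thus had the same direction in both rows. They were picked on the same arrays that make up the rows, so the shared direction is not an independent check. Of all listed genes, 8 had the same sign in both rows, among them Fmod with 0.15 in row 1 and 0.006 in row 2. The negative values of the cartilage-specific members came almost wholly from row 2, with -0.09 in row 1 against -1.02 in row 2 for Epyc, and -0.01 against -0.68 for Prelp. Bgn and Chad had opposite signs in the 2 rows, 0.17 and -0.09 for Bgn and 0.17 and -0.15 for Chad. Whether the rows themselves differed for these genes was not tested.

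**Figure D4:**
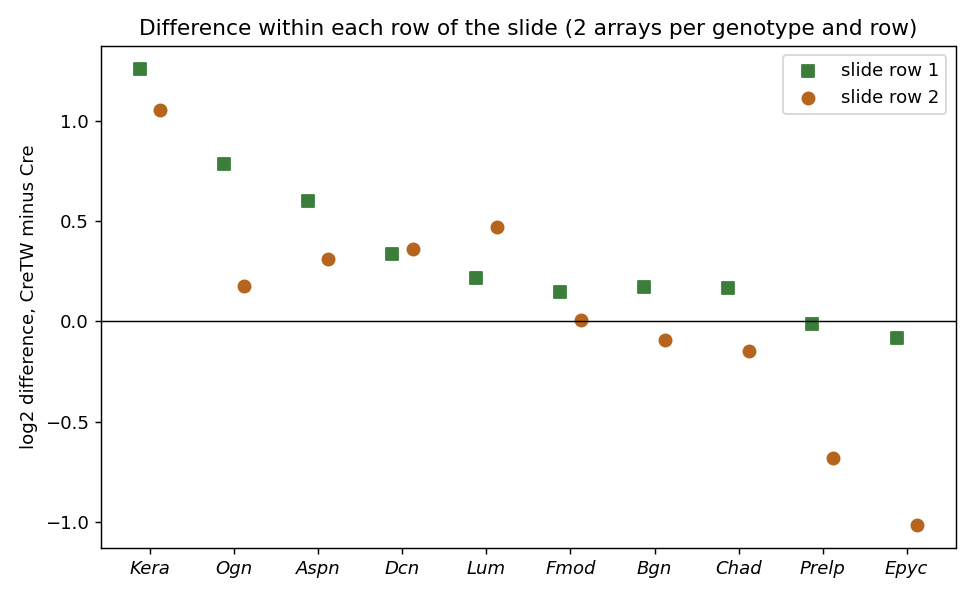
Log2 difference CreTW minus Cre (vertical axis) of the 10 listed genes computed within each row of the slide, from 2 arrays per genotype and row. Kera, Ogn, Aspn, Dcn and Lum lie above 0 in both rows, and the values of Epyc and Prelp are near 0 in row 1 and at -1.02 and -0.68 in row 2.

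Of 9 other genes of the family, 6 passed the filter and 0 passed the test by limma. Without adjustment 2 had p under 0.05 by limma, Podn higher and Tsku lower in CreTW, against 10.7% of all features in either direction. Podn encodes podocan, a family member of connective tissue and vessel walls. Podn lay at 1.76, 1.97, 1.39 and 2.08 in CreTW, against 1.40, 0.29, 0.73 and 1.43 in Cre. CreTW replicate 3 lay just below Cre replicates 1 and 4 and the other CreTW arrays were above, with a difference of 0.84 ± 0.27 (1.79-fold, adjusted p = 0.333). Ecm2, which lies beside Aspn, had 0.97, 0.94, 0.47 and 0.74 in CreTW, against 0.50, -0.25, 0.12 and 0.79 in Cre. Its difference of 0.49 ± 0.22 (adjusted p = 0.482) was close to that of Ogn and Aspn in the same cluster, whereas Omd, which encodes the bone protein osteomodulin and lies between Aspn and Ogn, had 0.03 ± 0.09 (interval -0.16 to 0.22). Chadl, a relative of chondroadherin made in cartilage, had -0.09 ± 0.27, with 0.41 in row 1 and -0.60 in row 2. Tsku had -0.28 ± 0.12 (adjusted p = 0.457) and Podnl1 -0.13 ± 0.19. Optc and Nyx, known from the eye, were not well above background on any array.

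The partners of these proteoglycans passed the test in no case. For comparison, 10.7% of all features had p under 0.05 without adjustment in either direction, and 5.93% had it with the higher mean in CreTW. Of 28 measured chain genes, enzymes that build or sulfate their chains and the sulfate transporter Slc26a2, 0 passed (14 positive, 14 negative, median -0.01, and 3 with p under 0.05 without adjustment by limma, 2 higher and 1 lower). The sulfate donor synthase Papss2 was at -0.28 ± 0.26 and the chondroitin polymerising factor Chpf at -0.04 ± 0.14. Of 16 collagens that they bind 0 passed (8 positive, 8 negative, median 0.09, 5 without adjustment, all higher in CreTW), with Col1a2 at -0.02 ± 0.11 and Col2a1 at -0.05 ± 0.13. Those 5, named after their values were seen, were Col3a1 (0.39), Col5a1 (0.44), Col6a1 (0.39), Col6a3 (0.46) and Col12a1 (0.30). The genotypes did not overlap for 3 of the 16, Col3a1, Col5a1 and Col6a3, with CreTW above, as for 3.89% of all features. Of 11 proteases that trim or cleave them 0 passed (5 positive, 6 negative, median -0.04, 5 without adjustment, 3 higher and 2 lower), with Htra1, a serine protease, at 0.21 ± 0.08 and the collagenase Mmp13 at -0.19 ± 0.35. Of 17 genes of signals that they bind or tune (growth factors, receptors and the TGF-beta binding protein Ltbp1) 0 passed (12 positive, 5 negative, median 0.07, 3 without adjustment, all higher). Ccn2 was at 0.15 ± 0.20 and the integrin chain Itgb1 at 0.24 ± 0.10. Groups also lay apart with CreTW above for 1 of the chain genes, 1 of the proteases and 1 of these 17. They lay apart with CreTW below for 1 of the chain genes and 1 of the proteases. The share of all features apart in that direction was not computed, so these counts are not read further.

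Markers of several cell types were read on the same arrays as the listed genes. All 22 markers of perichondrium, tendon and fibroblasts, none of them a listed proteoglycan, were measured, 21 of them well above background on all 8 arrays and Dpt on some only. Of these, 18 had a positive difference and 1 passed, Thy1, a fibroblast surface protein, at 0.60 ± 0.08 (adjusted p = 0.0258 by limma). That call was lost without each single array other than CreTW replicate 2 (highest adjusted p 0.108) with either block (0.0639 with the slide row, 0.1635 with the replicate number), without the filter on dim probes (0.271), and within slide row 1 (0.289) and row 2 (0.6795). Without adjustment 9 of the 22 had p under 0.05, all higher in CreTW, and 8 had genotypes that did not overlap, against 5.93% and 3.89% of all features. Col3a1, Col5a1 and Col12a1 are among the 9 and are also counted with the collagens above. The median of the 22 was 0.32. Their score, the mean of centred values, was 0.13, 0.38, 0.33 and 0.13 on the CreTW arrays, against -0.00055, -0.62, -0.26 and -0.09 on the Cre arrays, with the lowest values on the same Cre replicates 2 and 3 that were lowest in the connective tissue score. Their summed signal, in multiples of the 75th percentile and dominated by collagens, ran from 2109 to 2620 in CreTW and from 1957 to 2449 in Cre. Of 14 chondrocyte markers all were well above background on all arrays and 0 passed (0 without adjustment by limma, 12 of 14 negative, median -0.15). Their score was 0.10, 0.17, -0.49 and -0.08 in CreTW, against -0.33, 0.14, -0.10 and 0.58 in Cre, highest on Cre replicate 4 and lowest on CreTW replicate 3 as for Epyc and Prelp. Their summed signal ran from 2295 to 3181 in CreTW and from 2396 to 4102 in Cre. The 18 skeletal muscle markers had a median difference of 3.94 with summed signals of 44.2 to 632 in CreTW and 32.1 to 100.5 in Cre, 10 of them well above background on all arrays. CreTW replicate 1 had a muscle score of -1.16, against 3.13, 2.70 and 1.80 on the other CreTW arrays and -2.77 to 0.37 on the Cre arrays, while its Dcn, Lum, Aspn and Ogn values were within the range of the other CreTW arrays and its Kera value was the lowest of the CreTW arrays. Of the muscle markers 0 passed (13 had p under 0.05 without adjustment by limma). Several of these 13 were dim on some arrays, so the count and the median of 3.94 include signals not well above background. No marker of osteoblasts, osteoclasts, marrow blood cells, endothelium or adipocytes passed by limma, with p under 0.05 before adjustment for 1, 0, 0, 1 and 1 of 9, 7, 10, 8 and 4 measured, and medians of -0.31, -0.83, -0.30, -0.11 and -0.13 in that order. Osteoclast markers summed to 265 to 984 in CreTW and 396 to 1124 in Cre. The part of these cell types in the values of the proteoglycans was not tested.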

How the data were processed

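Per the file headers, the deposited intensity of each spot is background-subtracted output of the Agilent software Feature Extraction (version 11.5.1.1), for probes placed on mm9. The authors' deposited log2 table, made with GeneSpring 14.9 per the labels, equals the log2 processed intensity minus a constant per array. Spots of a probe were averaged, leaving out outlier spots. Arrays were put on a common scale at their 75th percentile after log2, and the filter required a signal well above background on 4 or more of the 8 arrays. Each array holds 56605 probes, 45.4% to 57.9% of them well above background, with 0 saturated spots, and precision is limited by the number of arrays. Probes were named through RefSeq transcripts of GRCm38.p6 (32994 of 56605), taking the brightest probe of a gene. CreTW and Cre were compared with limma 3.58.1 in R 4.3.3 on 8 arrays, checked on simulated arrays. Nothing in the labels beyond 4 mice per genotype describes how animals were kept apart, so p-values measure the spread between these samples. The members, the gene lists and the markers were chosen with earlier results of these data known, and the promoter motifs after the values were seen. Named were the 10 members, the measured family genes, the 2 brightest genes of each partner list where none passed, passing marker genes, and up to 3 features most like each member. Alternatives were other scalings, normexp with an offset of 50 on the median signal (the mean signal was not used here), the authors' table, other filters, probe means, replicate and slide row blocks, eBayes with trend, array weights and each array left out.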

Additional observations from a re-analysis of the deposited data

How the results depend on the processing

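Under all 21 alternatives 0 of the 10 listed genes passed by limma (1 to 6 with p under 0.05 without adjustment). Dcn, Lum, Ogn, Aspn and Kera kept positive differences and Prelp and Epyc negative ones, with Kera between 0.84 and 1.43 and Epyc between -1.02 and -0.09. The median of the listed genes lay between 0.09 and 0.29, and the cartilage-specific minus connective tissue difference between -0.94 and -0.48. Small differences turned sign. Chad was -0.0013 with the array median, -0.0024 with normexp, -0.15 in slide row 2 alone, and -0.050 to 0.12 without single arrays. In slide row 2 alone Bgn was -0.092 and Omd -0.11, and in row 1 alone Chadl was 0.41. Without single arrays Bgn ran from -0.10 to 0.13, Fmod from -0.015 to 0.18, Omd from -0.0037 to 0.069 and Chadl from -0.28 to 0.087. The cause was not tested.

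The count of changed features, 80, was 127 with array weights, 27 without the filter on dim probes (45616 features tested), 53 with slide row as a block, and 0 in slide row 1 alone and 0 in row 2 alone, where 4 arrays were fitted (3164 and 1216 with p under 0.05 without adjustment). It was 42 to 75 without single arrays, 42 without CreTW replicate 4, 51 without Cre replicate 2 and 50 without Cre replicate 3. With the replicate block it was 12, and 0 listed genes passed (3 without adjustment). Same-numbered arrays did not deviate together (r = -0.0123, -0.10, 0.31 and -0.03 for numbers 1 to 4), so the numbers were not taken as pairs.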

Other observations

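Probes of one gene could lie at different levels. For Chadl the difference was 0.07 by the dimmer probe and -0.09 by the brighter. The dimmer was well above background on 2 CreTW and 3 Cre arrays only. The dimmer of the 2 Chadl probes lay at -2.66 ± 0.42 in CreTW and -2.74 ± 0.45 in Cre, and the brighter at 6.45 ± 0.41 in CreTW and 6.55 ± 0.47 in Cre (SD, n = 4 each). Nepn, the gene of nephrocan, was not well above background by either of its probes on any CreTW array, nor by one of them on any Cre array. Its other probe was well above background on Cre replicates 1 and 3 alone, at -2.48 and -2.27, while Cre replicates 2 and 4 lay at -5.43 and -5.23. Nepn therefore did not pass the filter and was not compared between genotypes.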
